A study of Mus musculus with 18 samples.

Results

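The level of 10 genes that extracellular signal-regulated kinase (ERK) signaling switches on was followed in mouse pluripotent cells. They are the ERK phosphatases Dusp6, Dusp4 and Dusp5, the pathway inhibitors Spry2, Spry4 and Spred1, the ETS transcription factors Etv4 and Etv5, and the immediate-early genes Egr1 and Fos. They were taken by gene name, 10 of the 55471 genes listed, and all 10 passed the filter on low values. FPKM (fragments per kilobase of transcript, scaled to the mapped fragments of a library) was read for each of them in all 18 RNA-Seq libraries.

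Mouse embryonic stem cells (ESCs) of 1 Tet-On-OSKM/Oct4-GFP line carried a doxycycline (DOX)-inducible OSKM cassette (the factors Oct4, Sox2, Klf4 and Myc) at Col1a1, the transactivator M2rtTA in Rosa26 and GFP under the Oct4 distal promoter, and were grown on mitomycin-treated mouse embryonic fibroblast (MEF) feeders. 2iL-ESCs stayed in N2B27 with the MEK inhibitor PD0325901, the GSK3 inhibitor CHIR99021 and LIF (2iL), and OSKM-ESCs were moved to N2B27 plus DOX without 2i and LIF. Both were collected on days 18, 25 and 38 after the switch, with 2 libraries per day and medium. Tet-On-OSKM MEF cells were reprogrammed on feeders into OSKM-iPSCs in N2B27 plus DOX (clone 1 at passage 7, clone 3 at passage 6) and into 2iL-iPSCs in 2iL, which by the methods of the study also held DOX until colonies were picked (clone 3 at passage 2, clone 6 at passage 3), and 2 libraries came from Tet-On-OSKM MEF cells of passage 4 in serum medium. The MEF cells and iPSCs were of the background (C57BL/6 x 129S4/SvJae)F1, and the ESCs of the same F1 crossed with (CBA/CaJ X C57BL/6J)F2. The media differ at once in the MEK inhibitor, the GSK3 inhibitor, LIF and OSKM expression, so their effects cannot be told apart, and among iPSCs passage cannot be told apart from medium either. For the 2iL-iPSCs, the labels name N2B27 plus DOX as the daily medium, whereas the series text and the methods of the study name 2iL. Nothing states that the libraries of 1 group came from separate derivations, so the p-values measure the spread between these libraries.

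In this pathway, growth factor receptors activate RAS, and RAF, MEK and ERK are then phosphorylated in turn. Active ERK phosphorylates ETS factors of the ELK family, which sit with serum response factor on CArG boxes, and genes such as Egr1 and Fos are transcribed within minutes without new protein synthesis. The DUSP, Sprouty and SPRED proteins made in a later wave act back on the pathway, and mouse ESCs depend on FGF4-driven ERK signaling to leave the naive state, which the MEK inhibitor of 2i blocks.

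The promoters of Fos and Dusp5 are shown because an immediate-early gene and a feedback phosphatase can be compared in them. Both are RefSeq sequence of GRCm38.p6 (250 bases before the RefSeq start, of which the Dusp5 stretch ends before the start of the gene in the deposited files), and both lie on the plus strand. The RefSeq table used here held 7 promoters of 6 of the 10 genes (Dusp6, Dusp5, Spry2, Spred1, Etv5 and Fos). The Fos stretch is chr12:85473640-85473889, with the CRE core TGACG in capitals, and the Dusp5 stretch is chr19:53528895-53529108, with a pair of adjacent CArG boxes in capitals:
Fos: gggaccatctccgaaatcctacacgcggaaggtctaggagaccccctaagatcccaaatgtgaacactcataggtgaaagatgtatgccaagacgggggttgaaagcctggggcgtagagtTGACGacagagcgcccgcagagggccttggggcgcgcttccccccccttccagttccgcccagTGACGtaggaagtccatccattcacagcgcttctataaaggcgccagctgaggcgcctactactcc
Dusp5: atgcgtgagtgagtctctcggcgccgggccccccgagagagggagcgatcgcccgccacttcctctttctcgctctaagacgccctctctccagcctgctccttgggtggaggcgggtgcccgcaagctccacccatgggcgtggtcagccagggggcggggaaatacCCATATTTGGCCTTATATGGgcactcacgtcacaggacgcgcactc

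A CArG box, the binding sequence of serum response factor, was found in 1.47% of 32851 RefSeq promoters on either strand and in the Dusp5 promoter alone among the 7. Its pair covered the bases 82 to 73 and 72 to 63 before the RefSeq start. The pattern searched is its own reverse complement, so any match of it is found on both strands. The core TGACG, read on both strands, occurred in 17.8% of all promoters, in that of Fos at bases 129 to 125 and 66 to 62 and in that of Dusp5 at bases 55 to 51 on the opposite strand. The sequence CCGGAA, a form of the ETS core, was present in 12.03% of all promoters and the AP-1 site TGANTCA in 6.75%, and neither occurred in the 7 promoters. Other forms of the ETS core around GGAA were not searched. GGAA itself stands in both stretches shown, on both strands of each. These are matches of letters in the 250 bases read, not measured binding. Bases further upstream were not read, so a CArG box of Fos beyond this stretch would have been missed.

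Across the libraries, 11303 to 12095 genes had an FPKM over 1. The depth in reads is unknown, since the files hold no counts. Pluripotency markers (8 genes, among them Pou5f1, Sox2 and Nanog) all exceeded 1 FPKM in every ESC and iPSC library, and 5 of the 8 were listed at 0 in both MEF libraries. Their summed FPKM ranged from 1268 to 1892 in OSKM-ESCs and from 1046 to 1711 in OSKM-iPSCs. With 2iL it was higher, at 2869 to 3293 in ESCs and 2858 to 3332 in iPSCs. The sum includes Pou5f1 (Oct4) and Sox2, which are also in the OSKM cassette. Over all ESC days, limma with Benjamini-Hochberg adjustment called 6 of the 8 lower in OSKM-ESCs and 1, Utf1, higher (24.4% and 29.5% of all genes). The 15 fibroblast markers summed to 3224 to 3600 in MEF cells, 142.4 to 205.5 in OSKM-ESCs and 101.6 to 118.0 in 2iL-ESCs. In 1 library that stood apart, OSKM-iPSC clone 1, they summed to 403.8, against 79.1 in clone 3 and 123.3 to 132.0 in 2iL-iPSCs. Only 3 of the 15 exceeded 1 FPKM in every 2iL-ESC library and 4 in every 2iL-iPSC library, so these sums can rest on few markers. By the median ratio to MEF cells, used below, clone 3 (0.215%) lay above the 2iL-iPSCs (0.104% and 0.0213%). In bulk libraries, a change in RNA per cell cannot be told apart from a change in the share of cells that make it.

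**Figure D1:**
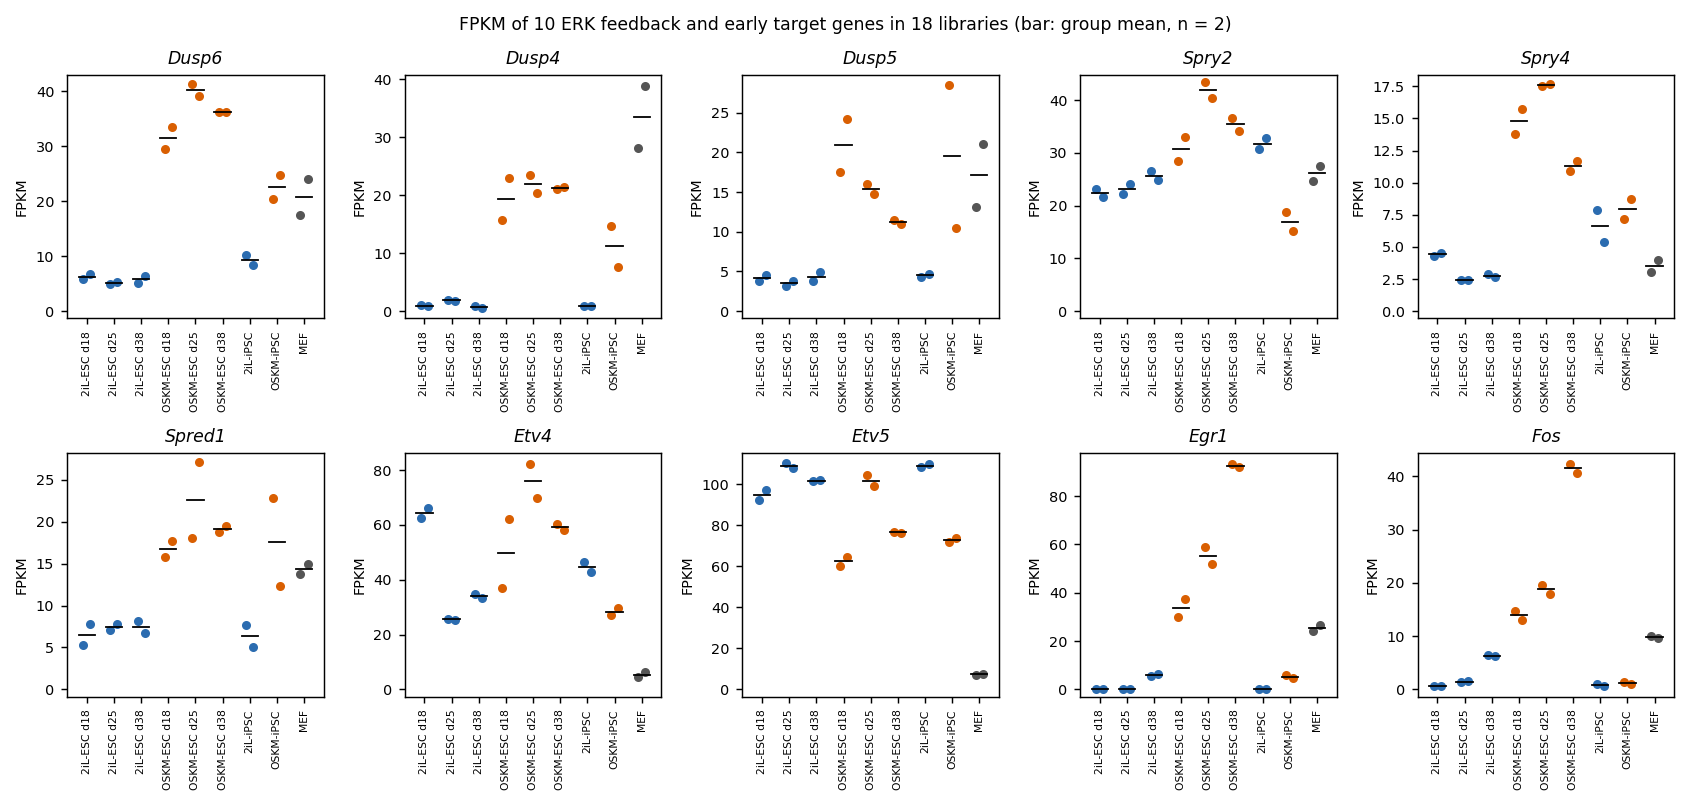
FPKM of each of the 10 genes (linear y axis from 0) in the 18 libraries (x axis, by group; blue for 2iL, orange for OSKM, gray for MEF; dots are libraries, bars the means of 2). For 8 genes, all 6 OSKM-ESC dots lie above all 6 2iL-ESC dots, which is not so for Etv4 and Etv5. Egr1 reaches 91.9 to 93.2 in OSKM-ESCs of day 38 and 4.56 to 5.99 in OSKM-iPSCs.

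OSKM-ESCs were compared with 2iL-ESCs first, to ask how ERK feedback and early targets stood without 2i and LIF. All 3 phosphatases, Spry2, Spry4, Spred1, Egr1 and Fos were higher in OSKM-ESCs, and Etv5 was lower. limma with Benjamini-Hochberg adjustment and day as a covariate called 9 of the 10 genes, 8 of them higher. By the same rule 53.8% of all 14016 genes tested were called, 29.5% higher and 24.4% lower. The median log2 difference of the 10 genes was 1.81, beside 0.03 over all genes tested. In 8 of the 10 genes every OSKM-ESC library lay above every 2iL-ESC library, which was so for 14.6% of all genes tested. All log2 differences below are of mean log2(FPKM + 1), OSKM minus 2iL, and understate the change of genes with low FPKM. With labels exchanged within days, the exact two-sided permutation test gave p = 0.00926, the smallest that its 216 arrangements allow, for each gene but Etv4 (exact p = 0.120).

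Dusp6 encodes a cytoplasmic phosphatase that acts on ERK itself. Its gene lies at chr10:99263231-99267489 on the plus strand (GRCm38, as all positions here). In OSKM-ESCs its FPKM was 29.5 and 33.6 on day 18, 41.3 and 39.2 on day 25 and 36.3 and 36.3 on day 38. In 2iL-ESCs it was 5.92 and 6.68, 5.01 and 5.37, and 5.15 and 6.42 on the same days. The lowest OSKM-ESC library thus lay far above the highest 2iL-ESC library, and the spread within each medium was small beside the gap. The mean of Dusp6 was 36.0 ± 4.13 (SD, n = 6) for OSKM-ESCs, 6.26-fold that of 2iL-ESCs at 5.76 ± 0.692 (SD, n = 6). The log2 difference was 2.45 ± 0.10 (SE; limma, Benjamini-Hochberg adjusted p = 3.2e-09).

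Dusp4 encodes a nuclear phosphatase of ERK and its relatives, at chr8:34807297-34819894 on the plus strand. It was low in 2iL-ESCs, with an FPKM of 1.05 and 0.872 on day 18, 1.93 and 1.75 on day 25 and 0.940 and 0.497 on day 38. In OSKM-ESCs its FPKM was 15.8 and 23.0, 23.6 and 20.4, and 21.0 and 21.4. This was the largest log2 difference among the 3 phosphatases. The mean FPKM of Dusp4 in OSKM-ESCs (20.9 ± 2.77, SD, n = 6) was 17.8-fold that in 2iL-ESCs (1.17 ± 0.552, SD, n = 6), with a log2 difference of 3.36 ± 0.13 (SE; limma, Benjamini-Hochberg adjusted p = 3e-09).

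Dusp5, at chr19:53529109-53542431 on the plus strand, encodes a nuclear phosphatase specific to ERK. OSKM-ESCs had an FPKM of 17.5 and 24.3 on day 18, 15.99 and 14.8 on day 25 and 11.5 and 11.0 on day 38. In 2iL-ESCs it was 3.78 and 4.58, 3.12 and 3.85, and 3.81 and 4.89. Within OSKM-ESCs, Dusp5 was highest on day 18 and lowest on day 38, with no overlap between the days, while the 2iL-ESC days overlapped. The log2 difference between the media was 1.71 ± 0.14 (SE; limma, Benjamini-Hochberg adjusted p = 1.4e-06), and the mean FPKM differed 3.95-fold.

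Among the Sprouty and SPRED inhibitors, which restrain signaling between the receptor and RAF, Spry2 differed least. Spry2, at chr14:105891947-105896819 on the minus strand, was well expressed in both media. Its FPKM ranged from 28.6 to 43.5 with a median of 35.5 in OSKM-ESCs and from 21.7 to 26.5 with a median of 23.6 in 2iL-ESCs. The media did not overlap, but the ratio of the mean FPKM values of Spry2 was 1.52 and the log2 difference 0.57 ± 0.08 (SE; limma, Benjamini-Hochberg adjusted p = 7.2e-05), the lowest of the 8 genes called higher.

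Spry4, at chr18:38586247-38601415 on the minus strand, had an FPKM of 13.8 and 15.8 on day 18, 17.5 and 17.7 on day 25 and 10.9 and 11.7 on day 38 in OSKM-ESCs. In 2iL-ESCs it was 4.30 and 4.55, 2.39 and 2.41, and 2.85 and 2.64. The days of each medium were themselves apart, in opposite order between days 18 and 25. Spry4 had a log2 difference of 1.90 ± 0.13 (SE; limma, Benjamini-Hochberg adjusted p = 3.1e-07) and a ratio of 4.56.

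Spred1, at chr2:117121374-117182279 on the plus strand, encodes a membrane-bound protein that brings the RAS inactivator neurofibromin to the membrane. Its FPKM ranged from 15.7 to 27.1 (median 18.4) in OSKM-ESCs and from 5.30 to 8.19 (median 7.43) in 2iL-ESCs. No library of one medium reached the range of the other. The log2 difference of Spred1 was 1.32 ± 0.11 (SE; limma, Benjamini-Hochberg adjusted p = 1.7e-06), and it was the steadiest over days, at 1.25, 1.45 and 1.25 on days 18, 25 and 38.

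The ETS factors Etv4 and Etv5, which carry FGF signals into transcription in many tissues, did not follow the other 8 genes. Etv4, at chr11:101769742-101785371 on the minus strand, had an FPKM of 37.1 and 62.2 on day 18, 82.4 and 69.9 on day 25 and 60.2 and 58.1 on day 38 in OSKM-ESCs. In 2iL-ESCs it was 62.5 and 66.2 on day 18, 25.9 and 25.3 on day 25 and 34.9 and 33.3 on day 38. Both 2iL-ESC libraries of day 18 were above both OSKM-ESC libraries of that day, and on days 25 and 38 the order was the reverse. Over all days the log2 difference of Etv4 was 0.63 ± 0.26 (SE; limma, Benjamini-Hochberg adjusted p = 0.054). This missed the threshold of 0.05, and the result turned on the day 18 libraries: without the first OSKM-ESC library of day 18 it was 0.85 (adjusted p = 0.0041), and without either 2iL-ESC library of that day 0.75 (adjusted p = 0.031) and 0.77 (adjusted p = 0.024). TPM (adjusted p = 0.043), quantile normalization (adjusted p = 0.047) and a single fit of all groups (adjusted p = 0.00035) called Etv4 higher as well. In 18 of 24 alternatives Etv4 stayed uncalled. Among these were median-ratio scaling (adjusted p = 0.076), no filter (adjusted p = 0.13) and every fit that left out a library of day 25 or day 38.

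Etv5, at chr16:22381309-22439719 on the minus strand, had the highest FPKM of the 10 genes in each 2iL-ESC library, whose range was 92.2 to 110.2 with a median of 101.8. OSKM-ESCs had 60.4 and 64.5 on day 18, 104.3 and 99.3 on day 25 and 76.8 and 76.4 on day 38. Day 25 of OSKM-ESCs overlapped the 2iL-ESCs as a whole, and days 18 and 38 lay below them. Etv5 was the 1 gene of the 10 called lower, with a log2 difference of -0.37 ± 0.07 (SE; limma, Benjamini-Hochberg adjusted p = 0.0013) and a ratio of 0.788.

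Egr1 encodes a zinc finger transcription factor of the first wave of transcription, at chr18:34859823-34864984 on the plus strand. In OSKM-ESCs its FPKM was 30.0 and 37.3 on day 18, 59.0 and 51.7 on day 25 and 93.2 and 91.9 on day 38. In 2iL-ESCs it was listed at 0 in both libraries of day 18, at 0.172 and 0 on day 25, and at 5.61 and 6.51 on day 38. Before day 38 the gene was thus at or near 0 in every 2iL-ESC library, and its highest 2iL-ESC value lay under its lowest OSKM-ESC value. The log2 difference of Egr1, 4.84 ± 0.25 (SE; limma, Benjamini-Hochberg adjusted p = 2.9e-08), was the largest of the 10, and no ratio is given for day 18, where the 2iL-ESCs were at 0.

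Fos encodes a partner of JUN in the AP-1 factor and lies at chr12:85473890-85477273 on the plus strand, directly after the promoter shown. OSKM-ESCs had an FPKM of 14.7 and 13.1 on day 18, 19.6 and 18.0 on day 25 and 42.3 and 40.7 on day 38. In 2iL-ESCs it was 0.556 and 0.666, 1.38 and 1.55, and 6.40 and 6.33. In each medium the later day was higher, without overlap. The 8 stress genes, which include Atf3, Gadd45b and heat shock genes, summed to 226.6 to 325.9 FPKM in OSKM-ESCs and to 513.7 to 692.4 FPKM in 2iL-ESCs, with 5 of 7 tested called lower and 1 higher. The 1 higher was Atf3, itself an immediate-early gene, with a log2 difference of 0.93 (limma, Benjamini-Hochberg adjusted p = 0.020) over all days, though -0.44 (adjusted p = 0.049) on day 25, and the part of such a response in Egr1 and Fos was not tested. The log2 difference of Fos was 2.91 ± 0.11 (SE; limma, Benjamini-Hochberg adjusted p = 2.2e-09).

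The days were then compared one by one, with 2 libraries against 2. On day 18, limma with Benjamini-Hochberg adjustment called 8 of the 10 genes higher and Etv5 lower (43.4% of all genes called, 25.7% higher). On day 25 it called 9 higher, Etv4 among them (46.0% of all genes called, 20.7% higher), and on day 38 all 10, of which Etv5 was lower (59.8% of all genes called, 34.6% higher). The 8 genes without overlap over all days were called higher on every single day. Etv4 had log2 differences of -0.41 ± 0.23 (SE; limma, Benjamini-Hochberg adjusted p = 0.19) on day 18, 1.53 ± 0.11 (adjusted p = 0.00045) on day 25 and 0.78 ± 0.05 (adjusted p = 0.00017) on day 38. Etv5 had -0.59 ± 0.11 (adjusted p = 0.0054), -0.10 ± 0.08 (adjusted p = 0.35) and -0.40 ± 0.04 (adjusted p = 0.00056). Without either 2iL-ESC library of day 18, the call of Etv5 on that day was lost (adjusted p = 0.053 and 0.065).

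**Figure D2:**
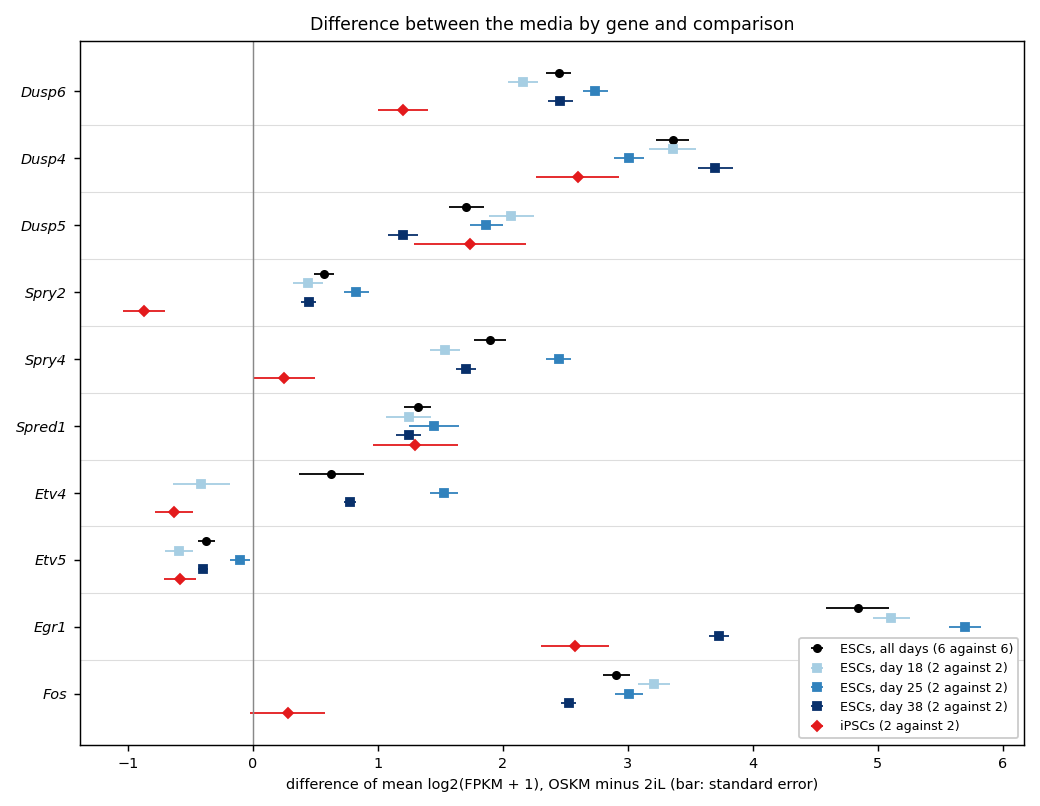
Differences of mean log2(FPKM + 1), OSKM minus 2iL (x axis; bars are standard errors), for the 10 genes (y axis), over all ESC days, on each ESC day and in iPSCs. Egr1 lies at 3.73 to 5.70 on the ESC days and at 2.58 in iPSCs, Spry2 changes sign between ESCs and iPSCs, and Etv4 changes sign between day 18 and the later days.

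Whether the difference between the media changed with day was asked by an interaction test, which called 7 of the 10 genes (37.9% of all genes called; limma, Benjamini-Hochberg adjustment). The range of the daily log2 differences was 1.97 for Egr1 (adjusted p = 0.00013), 1.95 for Etv4 (adjusted p = 0.0014) and 0.91 for Spry4 (adjusted p = 0.0011). For Dusp5 it was 0.86 (adjusted p = 0.032), and its difference fell from 2.07 on day 18 to 1.87 on day 25 and 1.20 on day 38. Fos (0.68, adjusted p = 0.0071), Dusp6 (0.58, adjusted p = 0.036) and Etv5 (0.50, adjusted p = 0.0057) were also called. Spry2 (0.39, adjusted p = 0.052), Dusp4 (0.69, adjusted p = 0.12) and Spred1 (0.20, adjusted p = 0.78) were not.

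Within OSKM-ESCs alone, the days differed for 6 of the 10 genes (38.6% of all genes called; limma, Benjamini-Hochberg adjustment), with the widest ranges of daily mean log2 levels in Fos (1.51, adjusted p = 0.00046) and Egr1 (1.44, adjusted p = 0.0012). The other 4 called were Dusp5 (0.82, adjusted p = 0.017), Etv5 (0.70, adjusted p = 0.0052), Spry4 (0.60, adjusted p = 0.015) and Spry2 (0.44, adjusted p = 0.046). Within 2iL-ESCs the days also differed for 6 of the 10 genes (50.8% of all genes called), again most in Egr1 (2.82, adjusted p = 0.0002) and Fos (2.19, adjusted p = 0.00021). Egr1 and Fos thus stood highest on day 38 under both media, while Dusp6 was called in neither, with ranges of 0.34 (adjusted p = 0.083) and 0.24 (adjusted p = 0.27). On the same day the 6 mesoderm markers summed to 202.8 to 207.5 FPKM in OSKM-ESCs, against 38.1 to 53.7 on day 18 and 17.1 to 17.7 on day 25, almost all of it from the T gene (brachyury), with Hand1 listed at 0. The 4 mesoderm markers tested were all called higher than in 2iL-ESCs on day 38, Eomes by 0.70, Mixl1 by 1.29 and Mesp1 by 0.91 on the log2 scale. The 6 primitive endoderm markers summed to 7.85 to 9.94 FPKM on day 38 and 2.68 to 4.36 before, and the 4 tested were called higher, Foxa2 by 2.03, Pdgfra by 1.30, Sox17 by 1.22 and Dab2 by 1.17, with Gata4 and Gata6 at most at 0.536 and 0.569 FPKM. The 6 trophoblast markers summed to 25.8 to 27.7, against 2.58 to 4.85 before, almost all of it from Cdx2, with Elf5 and Gata3 listed at 0. In 2iL-ESCs the mesoderm markers summed to 6.07 to 9.28 and the trophoblast markers to 0.827 to 2.23 over all days. Of 5 neural markers tested on day 38, 4 were called higher in OSKM-ESCs and 1, Tubb3, lower (-1.05). The 6 neural markers summed to 73.31 to 73.35 FPKM, against 79.7 to 82.2 in 2iL-ESCs of that day. No cell type was identified from these markers, and the part of such changes in the levels of Egr1 and Fos was not tested. In a fit without day 38, an alternative chosen after seeing the data, each of the 10 genes stayed on its side of the threshold over the other 2 days.

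Fibroblast markers were read because the cells grew on feeders and MEF cells express the 10 genes. Of the 15 fibroblast markers, 12 were tested in ESCs, and 11 were called higher in OSKM-ESCs (limma, Benjamini-Hochberg adjustment). Their median level relative to MEF cells was 1.03% to 3.61% in OSKM-ESCs and 0.183% to 0.344% in 2iL-ESCs. Multiplied by the level of each gene in MEF cells, which grew in serum medium, this share came to at most 5.52% of the FPKM of any of the 10 genes in an OSKM-ESC library, which was Dusp4. With that estimate subtracted, limma called the same number of the 10 genes over all days, 9.

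In iPSCs, the same question was asked of 2 clones against 2. Dusp6, Dusp4 and Egr1 were higher in OSKM-iPSCs and Spry2 was lower, and the other 6 genes were not called. The 6 trophoblast markers moved with the medium too, with a sum of 15.3 to 16.2 FPKM in OSKM-iPSCs and 1.495 to 2.76 FPKM in 2iL-iPSCs. Most of it came from Krt7, at 9.40 to 10.7 against 0.381 to 0.578 FPKM (2.90; limma, Benjamini-Hochberg adjusted p = 0.0096), the 1 gene called of the 4 tested, and Cdx2 was at 0.277 to 0.426 FPKM in OSKM-iPSCs. Their part in the levels of the 10 genes was not tested. These 4 of 10 calls stood beside 7.96% of all 13653 genes tested (5.00% higher, 2.96% lower; limma, Benjamini-Hochberg adjustment). Quantile normalization moved the whole split from 683 higher and 404 lower to 422 higher and 440 lower. Without the filter on FPKM limma called 0 of 25331 genes, with 5014 at an unadjusted p under 0.05, and without either 2iL-iPSC clone it called 0 as well, with 1917 and 1880 at an unadjusted p under 0.05. Wherever 1 clone is left out, the spread comes from the 2 clones of the other medium. An exact permutation test of 2 against 2 cannot go below p = 0.333.

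Dusp6 reached 20.3 FPKM in OSKM-iPSC clone 1 and 24.8 FPKM in clone 3, against 10.1 and 8.35 in 2iL-iPSC clones 3 and 6. The log2 difference was 1.20 ± 0.20 (SE; limma, Benjamini-Hochberg adjusted p = 0.030), and 1.06 (adjusted p = 0.058) without OSKM-iPSC clone 3. Dusp4 had 14.7 and 7.69 against 0.920 and 0.918, a difference of 2.60 ± 0.33 (SE; limma, Benjamini-Hochberg adjusted p = 0.018). The 2iL-iPSC level of Dusp4 was that of 2iL-ESCs, while the OSKM-iPSC clones differed among themselves.

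Egr1 had an FPKM of 5.99 and 4.56 in the OSKM-iPSC clones and was listed at 0.0878 and 0 in the 2iL-iPSC clones, a log2 difference of 2.58 ± 0.27 (SE; limma, Benjamini-Hochberg adjusted p = 0.013). Spry2 had 18.7 and 15.2 against 30.8 and 32.8, so its order was the opposite of that in ESCs. Its difference was -0.87 ± 0.17 (SE; limma, Benjamini-Hochberg adjusted p = 0.043), lost with TPM (adjusted p = 0.055), in limma without trend (adjusted p = 0.068) and without OSKM-iPSC clone 3 (adjusted p = 0.063).

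Of the 6 genes not called, Dusp5 and Spred1 differed most between the OSKM-iPSC clones. Dusp5 stood at 28.5 FPKM in clone 1 and at 10.5 FPKM in clone 3, against 4.36 and 4.67 in 2iL-iPSCs, with a log2 difference of 1.74 ± 0.45 (SE; limma, Benjamini-Hochberg adjusted p = 0.072). It was called without clone 3 (2.42, adjusted p = 0.025) and not without clone 1 (1.06, adjusted p = 0.064). Spred1 had 22.8 and 12.3 against 7.68 and 5.02 (1.30 ± 0.34, adjusted p = 0.077). For both genes each OSKM-iPSC clone lay above both 2iL-iPSC clones, and the adjusted p missed the threshold. Such an order of 2 against 2 has an exact permutation p of 0.333 and does not replace a call. The share of all genes with such an order was not counted.

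Etv4 (27.2 and 29.5 against 46.4 and 42.8 FPKM) and Etv5 (71.9 and 73.8 against 108.2 and 109.9 FPKM) lay below their 2iL-iPSC levels in both OSKM-iPSC clones. Their log2 differences were -0.63 ± 0.15 and -0.58 ± 0.13 (SE; limma, Benjamini-Hochberg adjusted p = 0.060 and 0.057). Neither was called, and the same limit of 2 against 2 holds for their order. Spry4 (7.19 and 8.70 against 7.85 and 5.36 FPKM) and Fos (1.42 and 0.939 against 0.972 and 0.618 FPKM) overlapped between the media. Their differences were 0.25 ± 0.25 (adjusted p = 0.53) and 0.28 ± 0.30 (adjusted p = 0.56).

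In OSKM-iPSC clone 1 the fibroblast markers stood at 7.55% of the MEF level, and in clone 3 at 0.215%. At that share, fibroblast RNA would come to 52.0% of the FPKM of Fos in clone 1, 32.1% of Egr1, 17.3% of Dusp4, 10.5% of Spry2 and 7.71% of Dusp6. The estimate was 4.76% for Spred1 and 4.53% for Dusp5. It takes the level of each gene from MEF cells in serum medium. Levels in mitomycin-treated feeders or in fibroblasts kept in N2B27 were not measured, so these percentages may not hold for them. With the estimate subtracted, the 4 calls in iPSCs held, at 1.14 for Dusp6 (limma, Benjamini-Hochberg adjusted p = 0.038), 2.49 for Dusp4 (adjusted p = 0.015), 2.36 for Egr1 (adjusted p = 0.013) and -0.95 for Spry2 (adjusted p = 0.032). Without OSKM-iPSC clone 1 the same 4 genes were called, with the lone clone 3 assumed to vary like the 2iL-iPSC clones, which alone gave the spread, at 1.34 for Dusp6 (adjusted p = 0.046), 2.18 for Dusp4 (adjusted p = 0.030), 2.41 for Egr1 (adjusted p = 0.029) and -1.02 for Spry2 (adjusted p = 0.049). Egr1 in clone 3, where the estimate was 1.20%, was at 4.56 FPKM. The source of the Egr1 RNA was not tested in either clone.

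**Figure D3:**
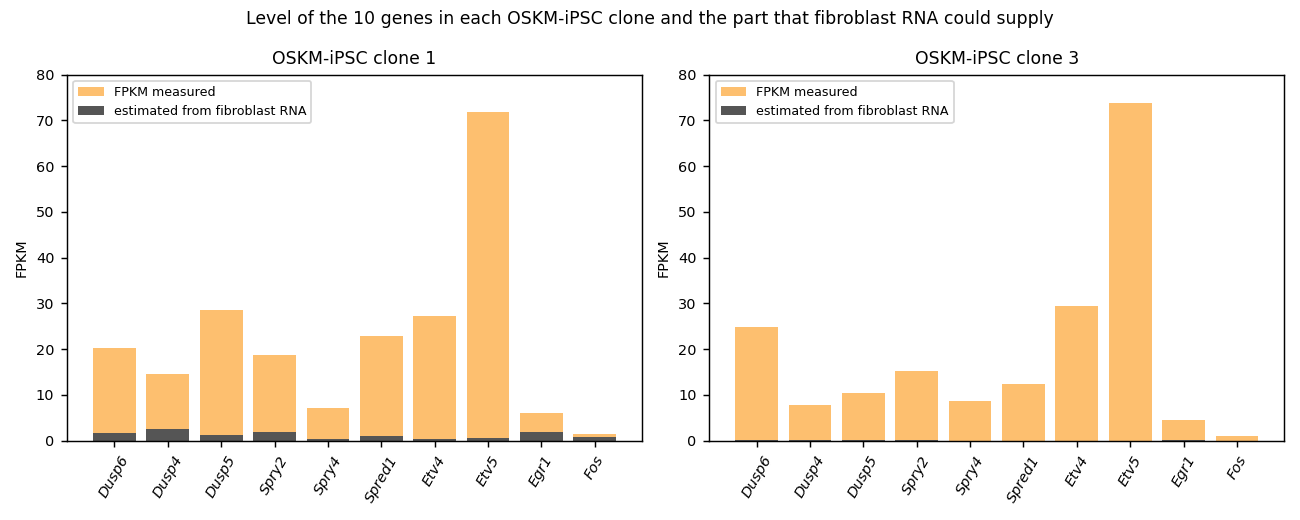
FPKM of the 10 genes (y axis from 0) in OSKM-iPSC clones 1 and 3, with the part estimated from fibroblast RNA in gray. The gray part is 52.0% of Fos and 32.1% of Egr1 in clone 1, and at most 2.24% of any gene in clone 3.

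The difference between the media was then compared between the cell types directly, in 1 fit, as the difference in iPSCs minus that in ESCs. It was called for 6 of the 10 genes, all of them lower in iPSCs (14.2% of all genes called, 5.55% lower; limma, Benjamini-Hochberg adjustment). Quantile normalization moved the split over all genes from 1268 higher and 811 lower to 994 higher and 1102 lower. Fos (-2.64 ± 0.16, SE, adjusted p = 5.5e-06), Egr1 (-2.27 ± 0.17, adjusted p = 3.3e-05) and Spry4 (-1.65 ± 0.17, adjusted p = 0.00027) had the largest such differences. Spry2 (-1.45 ± 0.13, adjusted p = 8.8e-05), Etv4 (-1.27 ± 0.21, adjusted p = 0.0031) and Dusp6 (-1.25 ± 0.15, adjusted p = 0.00062) followed. For Egr1 the order depended on the scale. Its log2 difference was smaller in iPSCs also with a pseudocount of 0.1 (5.28 against 6.90 in ESCs). Its ratio of mean FPKM was larger in iPSCs (120 against 29.5 in ESCs), where the 2iL-iPSCs were at or near 0. Dusp4 (-0.76 ± 0.29, adjusted p = 0.10) and Etv5 (-0.21 ± 0.08, adjusted p = 0.095) were not called. Neither were Spred1 (-0.02 ± 0.32, adjusted p = 0.98) and Dusp5 (0.02 ± 0.38, adjusted p = 0.97), whose standard errors leave room for a difference of either sign. The ESC and iPSC lines also differ in strain background and in time under their medium.

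MEF cells, the cells of origin of the iPSCs, had high levels of the phosphatases and immediate-early genes and low levels of the ETS factors. Their FPKM in the 2 libraries was 17.5 and 24.1 for Dusp6, 28.1 and 38.9 for Dusp4, and 13.2 and 21.1 for Dusp5. Spry2 had 24.7 and 27.6, Spry4 3.03 and 4.02, and Spred1 13.8 and 15.0. Etv4 had 4.36 and 6.49 and Etv5 7.24 and 7.39, the lowest group for both genes. Egr1 had 24.3 and 26.7 and Fos 9.96 and 9.59, both between the ESC media.

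Against MEF cells, 7 of the 10 genes were called in OSKM-iPSCs (60.3% of all genes called, 34.0% higher and 26.4% lower) and 9 in 2iL-iPSCs (78.0% of all genes called, 40.6% higher and 37.4% lower; limma, Benjamini-Hochberg adjustment), and the comparisons share the MEF libraries. Etv5 rose by 3.15 ± 0.10 (SE, log2, adjusted p = 0.00097) in OSKM-iPSCs and 3.73 ± 0.09 (adjusted p = 1.3e-05) in 2iL-iPSCs, and Etv4 by 2.21 ± 0.20 (adjusted p = 0.0025) and 2.85 ± 0.18 (adjusted p = 0.00014). Dusp4 fell by 1.55 (adjusted p = 0.021) in OSKM-iPSCs and by 4.15 (adjusted p = 4.7e-05) in 2iL-iPSCs. Egr1 fell by 2.09 (adjusted p = 0.0019) and 4.67 (adjusted p = 1.5e-05), and Fos by 2.31 (adjusted p = 0.0018) and 2.59 (adjusted p = 9.1e-05). Dusp6 (0.12 ± 0.21, adjusted p = 0.62) and Dusp5 (0.06 ± 0.53, adjusted p = 0.93) were not called in OSKM-iPSCs, and the sign of both turned under median-ratio scaling, that of Dusp5 also under quantile normalization and TPM. In 2iL-iPSCs Dusp6 fell by 1.08 (adjusted p = 0.0043) and Dusp5 by 1.68 (adjusted p = 0.0017). In OSKM-iPSCs against MEF cells the median over all genes was 0.19 in the values as deposited and 0.02 after median-ratio scaling.

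In the order of the 9 group means, Dusp6 ran from OSKM-ESCs of day 25 (40.2 FPKM) through days 38 and 18, OSKM-iPSCs, MEF cells and 2iL-iPSCs to the 2iL-ESCs, and only OSKM-iPSCs with MEF cells and the 2iL-ESC days with each other overlapped as neighbours. Dusp4 was highest in MEF cells (33.5 FPKM), followed by the OSKM-ESC days, which overlapped, OSKM-iPSCs and all 2iL groups. Dusp5 and Spred1 had the most overlap, with OSKM-ESCs, OSKM-iPSCs and MEF cells above all 2iL groups. For Egr1 and Fos the order was OSKM-ESCs of days 38, 25 and 18, then MEF cells and 2iL-ESCs of day 38, each without overlap with the next up to that point. OSKM-iPSCs came after these, overlapping 2iL-ESCs of day 38 for Egr1 and both 2iL-ESCs of day 25 and 2iL-iPSCs for Fos.

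As a description, the patterns of the 10 genes were compared by Pearson's r of log2(FPKM + 1) over the 16 ESC and iPSC libraries, which share their media and days and are not independent. With Dusp6, r was 0.95 for Dusp4, 0.95 for Spry4, 0.90 for Spred1, 0.88 for Dusp5 and 0.87 for Egr1. It was 0.73 for Fos, 0.48 for Spry2, 0.48 for Etv4 and -0.63 for Etv5. Outside the 10 genes, the 3 most like Dusp6 of 14621 genes were Myc (0.98), Mfap3 (0.98) and Fgf5 (0.98). Myc is also in the OSKM cassette, and its mean FPKM was 108.9 and 57.1 in the OSKM-grown ESCs and iPSCs, against 9.62 and 16.4 in the 2iL-grown ones. Fgf5, a fibroblast growth factor of the early epiblast, had 3.93 and 2.71 against 0.0143 and 0.151. With Egr1, r was highest for Tdrd5 (0.98), Lrrc14 (0.94) and Plch1 (0.94), and 0.95 for Fos among the 10 genes.

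The rest of the pathway was read from 4 lists of genes with the same fits. Other feedback genes, further DUSP, Sprouty and SPRED genes with Il17rd and Errfi1, were mostly higher or not called in OSKM-ESCs over all days: of 11 tested of 14, limma with Benjamini-Hochberg adjustment called 6 higher and 0 lower (29.5% and 24.4% of all genes), with a median log2 difference of 0.69 beside 0.03 over all genes. On single days it called 7 higher and 0 lower on day 18 (25.7% and 17.7% of all genes). On day 25 it called 5 higher and 2 lower (20.7% and 25.3%), and on day 38 it called 6 higher and 2 lower (34.6% and 25.2%). Those lower were Dusp14 (-0.52) and Dusp16 (-0.37) on day 25, and Dusp1 (-0.82) and Dusp14 (-0.56) on day 38. Dusp1 was higher on day 18 (1.34). Spred3, a relative of Spred1, had 4.60 to 9.30 FPKM (median 6.90) in OSKM-ESCs and 0.718 to 1.20 (median 0.931) in 2iL-ESCs (2.00, adjusted p = 3.3e-07). Errfi1, an inhibitor of the EGF receptor, had 7.33 to 10.0 against 3.62 to 4.73 FPKM (0.87, adjusted p = 8.7e-06). Dusp7, a cytoplasmic ERK phosphatase like Dusp6, had 8.38 to 12.5 against 4.44 to 7.14 FPKM (0.77, adjusted p = 8.7e-05). Dusp10, which acts on the p38 and JNK kinases, had 1.19 to 5.25 against 0.539 to 0.9997 FPKM (0.94, adjusted p = 0.0023).

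Other early targets were higher in part, with 11 higher, 2 lower and 4 not called of 17 tested of 20 (29.5% of all genes higher, 24.4% lower) and a median of 0.83. The 2 lower were Ier3 (-1.19; limma, Benjamini-Hochberg adjusted p = 0.005) and Klf10 (-1.02, adjusted p = 7.3e-06). On day 25, 8 of 15 tested were called higher and 4 lower (20.7% and 25.3% of all genes). On day 38, 10 of 16 were called higher and 5 lower (34.6% and 25.2%). Fosb, a relative of Fos, had 2.30 to 15.1 FPKM (median 11.1) in OSKM-ESCs and 0.00926 to 1.36 (median 0.0924) in 2iL-ESCs (2.69; limma, Benjamini-Hochberg adjusted p = 1.1e-06). Phlda1, an early response gene, had 5.12 to 21.6 against 0.788 to 1.84 FPKM (2.23, adjusted p = 1.1e-05). The AP-1 genes Jun (5.80 to 15.0 against 1.004 to 4.48 FPKM) and Junb (10.5 to 38.0 against 4.60 to 6.54 FPKM) differed by 1.60 (adjusted p = 0.00047) and 1.59 (adjusted p = 3.2e-05). Fosb, Phlda1, Jun and Junb were chosen for having no overlap between the media, so that is not a result about them. Of the 17 tested, 10 were called without overlap, in either direction. Over all genes tested, 14.6% had every OSKM-ESC library above every 2iL-ESC library.

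The cascade from the receptor adaptors to ERK moved in both directions, with 8 genes higher, 5 lower and 6 not called of 19 (29.5% of all genes higher, 24.4% lower), and a median of 0.17, so the share called lower lay near that of all genes. Gab1, a docking protein below receptors, had 21.3 to 52.1 FPKM in OSKM-ESCs and 69.8 to 88.5 in 2iL-ESCs (-1.41; limma, Benjamini-Hochberg adjusted p = 2e-05). Map2k1, which encodes MEK1, had 32.4 to 38.6 against 50.1 to 66.0 FPKM (-0.73, adjusted p = 1.2e-05), and the scaffold Ksr1 1.71 to 2.68 against 4.22 to 7.20 FPKM (-0.97, adjusted p = 4.9e-06). Mapk3, which encodes ERK1, was the other way round, at 48.8 to 69.9 against 29.5 to 42.3 FPKM (0.65, adjusted p = 6.1e-05). The 6 ETS factors that ERK phosphorylates directly (Elk1, Elk3, Elk4, Ets1, Ets2 and Erf) gave 2 higher, 1 lower and 3 not called, with a median of 0.19, a share of calls near the 53.8% of all genes. Ets1 was at 0.898 to 2.42 FPKM in OSKM-ESCs and at most 0.423 in 2iL-ESCs (1.03, adjusted p = 0.00011).

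**Figure D4:**
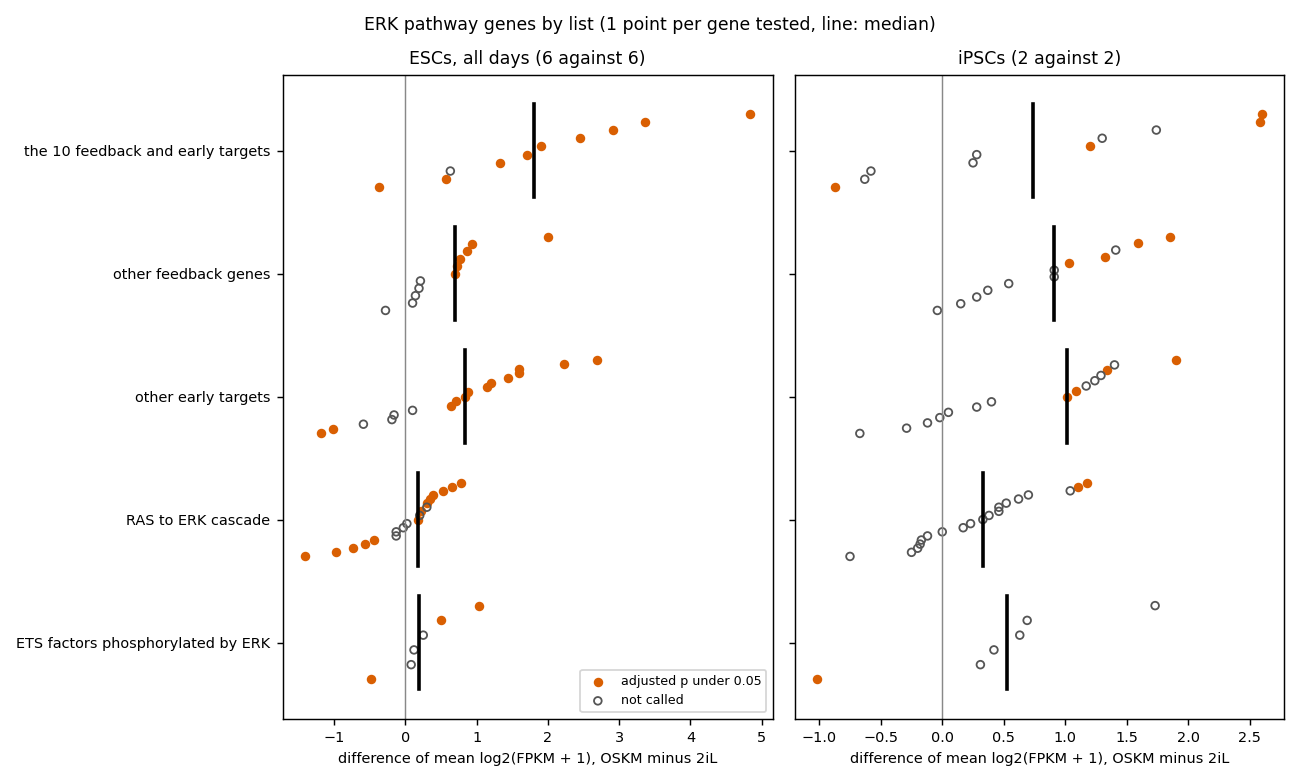
Differences of mean log2(FPKM + 1), OSKM minus 2iL (x axis), in ESCs over all days and in iPSCs, for the 10 genes and the 4 further lists (y axis; 1 point per gene tested, filled where the adjusted p of limma was under 0.05, lines for medians). The medians in ESCs are 1.81 for the 10 genes, 0.69 for other feedback genes, 0.83 for other early targets, 0.17 for the cascade and 0.19 for the ETS factors.

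In iPSCs fewer genes of these lists were called (5.00% of all genes higher, 2.96% lower; limma, Benjamini-Hochberg adjustment). Of the other feedback genes 4 of 12 were called higher, of the other early targets 4 of 15, and of the cascade 2 of 19, with none lower. Of the ETS factors 1 of 6 was called lower. Errfi1 had 17.5 and 11.4 FPKM against 4.30 and 3.78 (1.59, adjusted p = 0.029), Jun 8.67 and 6.93 against 1.52 and 1.19 (1.90, adjusted p = 0.018), and Mapk3 65.3 and 57.8 against 23.7 and 33.2 (1.10, adjusted p = 0.038). Junb (21.3 and 4.77 FPKM), Phlda1 (17.5 and 2.30 FPKM) and Ets1 (7.78 and 0.693 FPKM) were far higher in OSKM-iPSC clone 1 than in clone 3 and were not called, at adjusted p = 0.21, 0.32 and 0.20. In MEF cells Junb had 50.7 to 52.3, Phlda1 19.4 to 27.5 and Ets1 20.6 to 20.9 FPKM, and clone 1 was the library with the high fibroblast markers. The part of fibroblast RNA in these 3 genes was not tested, and without clone 1 limma called 7 genes of the 4 lists in place of 11. Fosb, at most 0.0833 FPKM in the iPSCs, was not tested.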

How the data were processed

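RNA-Seq of 18 libraries was analysed from the deposited gene tables. Per the labels and the submitters' processing notes, the authors aligned reads to GRCm38 with STAR 2.7.1a and ran StringTie 2.0 (Cuffdiff 2.2.1 is also named). The authors' FPKM and TPM are scaled per gene length and library, and coverage, as deposited, is an unscaled signal (the mean read depth per base). TPM differed from rescaled FPKM by at most 0.0026. Rows that share an identifier (11 identifiers) were summed, and 2 genes with a failed value were dropped. Counts are not given, so depth is unknown, and the number of libraries limits the precision.

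Differences were tested in limma 3.58.1 (R 4.3.3, eBayes with trend). Each fit held the groups it compared and took log2(FPKM + 1) of every gene that exceeded an FPKM of 1 in 1 or more of their libraries. Day was a covariate where days were combined. Adjustment was made over all genes tested (Benjamini-Hochberg, threshold 0.05). The procedure was tested on simulated data. Tables, exact two-sided permutation tests and figures used Python 3.11.15, numpy 2.4.6, scipy 1.17.1, pandas 2.3.3 and matplotlib 3.10.9. Fibroblast RNA was estimated as the median ratio of 15 markers to their MEF mean. Motifs were searched in the 250 bases before RefSeq starts (GRCm38.p6).

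The 10 genes and the gene lists were chosen with earlier results of these data known. All 10 were named, with up to 4 genes per pathway list (those with the largest difference among genes called over all ESC days without overlap), markers beside a result, and the 3 genes most like Dusp6 and Egr1. Also named were the other feedback genes called lower on a single day and the other early targets called lower over all days. Alternatives were a pseudocount of 0.1, other filters, TPM, quantile normalization, median-ratio scaling, limma without trend, a single fit of all 9 groups, the fold and p criterion of the study (2-fold, unadjusted p under 0.05), fibroblast RNA subtracted, a replicate block and leaving out each replicate.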

Additional observations from a re-analysis of the deposited data

Results flagged for a closer look

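The difference between OSKM-ESCs and 2iL-ESCs changed with day for 7 of the 10 genes in an interaction test of limma with Benjamini-Hochberg adjustment, which called 37.9% of all genes. The range of the daily log2 differences was 1.97 for Egr1, 1.95 for Etv4, 0.91 for Spry4, 0.86 for Dusp5, 0.68 for Fos, 0.58 for Dusp6 and 0.50 for Etv5. Etv4 was the gene of these 7 whose difference changed sign between days.

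The difference between the media in iPSCs minus that in ESCs passed limma's test for 6 genes (14.2% of all genes called), at -2.64 for Fos, -2.27 for Egr1, -1.65 for Spry4, -1.45 for Spry2, -1.27 for Etv4 and -1.25 for Dusp6. The ratio of mean FPKM of Egr1 went the other way, at 120 in iPSCs and 29.5 in ESCs. For Spry2, called in both, and Etv4, called in neither over all days, the iPSC difference had the opposite sign to the ESC difference. Groups of 2 libraries are too small for a test of a single library that stands apart.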

How the results depend on the processing

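Over all ESC days, 9 or 10 of the 10 genes were called under each alternative but the fold criterion of the study (7), and 9 to 10 without each library in turn. On single days, leaving out 1 library gave 7 to 9 on day 18, 9 to 9 on day 25 and 10 to 10 on day 38. In iPSCs the count of 4 went to 0 without a filter, to 8 in a single fit of all groups (which called 45.0% of all genes in place of 7.96%), and ranged from 0 to 4 without each clone. For the 4 pathway lists, 35 genes called in ESCs became 18 under the fold criterion and ranged from 33 to 36 without each library. The 11 called in iPSCs became 0 without a filter, 32 in a single fit and 6 in limma without trend, and ranged from 0 to 13 without each clone (0 without either 2iL-iPSC clone, 7 without OSKM-iPSC clone 1). The cause was not tested. Adjustment over all genes, those listed at 0 included, is part of the result without a filter.

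Dusp6 in OSKM-iPSCs against MEF cells turned to -0.07 under median-ratio scaling, and Dusp5 to -0.13, -0.04 and -0.05 under median-ratio scaling, quantile normalization and TPM. Dusp5 in iPSCs minus ESCs turned to -0.01 with a pseudocount of 0.1, -0.02 under median-ratio scaling and -0.01 under quantile normalization and TPM. None of these was called. Of the other values of single genes, 681 kept direction and call, 16 became called and 23 lost their call, and with 1 library left out 259, 5 and 15 did so.

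Same-numbered libraries of one day correlated at 0.131, 0.0904 and 0.012 on days 18, 25 and 38, which was not over 0.1 on every day. No source used here states a pairing, so same-numbered libraries of one day were not treated as pairs. With a replicate block, 9 of the 10 genes were called over all days, with Etv4 at adjusted p = 0.10 (limma), and 10 on day 18, with Etv4 at -0.41. Over all genes the block moved the calls from 7546 to 6673.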
